A study of Mus musculus with 16 samples.

Results

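The transgene effect was read from all 16 arrays of the series as a single contrast, the 8 arrays of alpha-MHC-NOS3 mice against the 8 of wild-type littermates, whatever the load on the ventricle. Each array holds RNA from a ring of the left ventricle, cut at mid height, of 1 mouse. In the alpha-MHC-NOS3 mice (called NOS3-TG here) the promoter of the alpha-myosin heavy chain gene, which is active in cardiomyocytes, drives nitric oxide synthase 3, and the wild-type littermates (WT) lack this construct. Mice of either genotype were intact (baseline) or had lived 10 weeks with transverse aortic constriction (TAC), a narrowing of the aorta that makes the left ventricle pump against a higher pressure. The 4 groups of NOS3-TG baseline, WT baseline, NOS3-TG TAC and WT TAC held 4 arrays each, from 2 males and 2 females. All were on a C57BL/6 N background after 7 generations of backcrossing and were matched for age and weight, with no age given in the sources used here. The arrays were chosen by genotype alone, so no measured value entered the choice, and slide was kept as a block.

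Nitric oxide synthase 3 makes nitric oxide from arginine with tetrahydrobiopterin as cofactor. In the heart it normally sits in endothelial and, at lower levels, muscle cells, held by caveolins. Nitric oxide activates soluble guanylate cyclase, the cyclic GMP so made acts through protein kinase G, and phosphodiesterases end the signal. Without enough cofactor or substrate the enzyme gives off superoxide instead, and oxidants or electrophiles release the transcription factor NRF2, which raises glutathione and quinone enzymes.

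Values below are the log2 processed signal of a spot minus the 75th percentile of its array, so that 0 is the level of that percentile and a difference of 1 is 2-fold. The 75th percentile lay between 1053 and 1491 signal units, and between 44.8% and 68.1% of probes were well above background. The 3 arrays farthest from the median share (52.5%) were NOS3-TG baseline replicate 2, NOS3-TG TAC replicate 3 and NOS3-TG TAC replicate 4. On each of the 4 slides NOS3-TG lay at positions 1 and 2 and WT at positions 3 and 4, so genotype and position on the slide cannot be told apart. The tissue is a mixture of cells, in which fewer cells of a type and less RNA per cell cannot be told apart. Differences are NOS3-TG minus WT from limma with slide and sex in the model, given with their standard error over 8 and 8 arrays. A gene is called where limma's Benjamini-Hochberg adjusted p over 15670 genes was under 0.05.

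Nos3 signal separated the genotypes on every array. It read 6.94 at the lowest, 7.70 at the median and 8.02 at the highest of the 8 NOS3-TG arrays, against 0.96, 1.48 and 1.85 on the WT arrays. The groups lay far apart, and the difference of 6.14 ± 0.15 (limma adjusted p = 2.3e-10) was 70.4-fold, with a 95% interval from 56.1 to 88.4. It was 6.58 in intact and 5.69 in TAC ventricles. The interaction with load was -0.89 (95% interval -1.27 to -0.51), which did not pass over all genes (limma adjusted p = 0.482). WT values were 1.28 ± 0.22 (SD, n = 4) at baseline and 1.69 ± 0.14 after TAC, and NOS3-TG values 7.86 ± 0.17 and 7.38 ± 0.36. Whether the probe reads transgene and endogenous transcript alike was not tested.

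**Figure D1:**
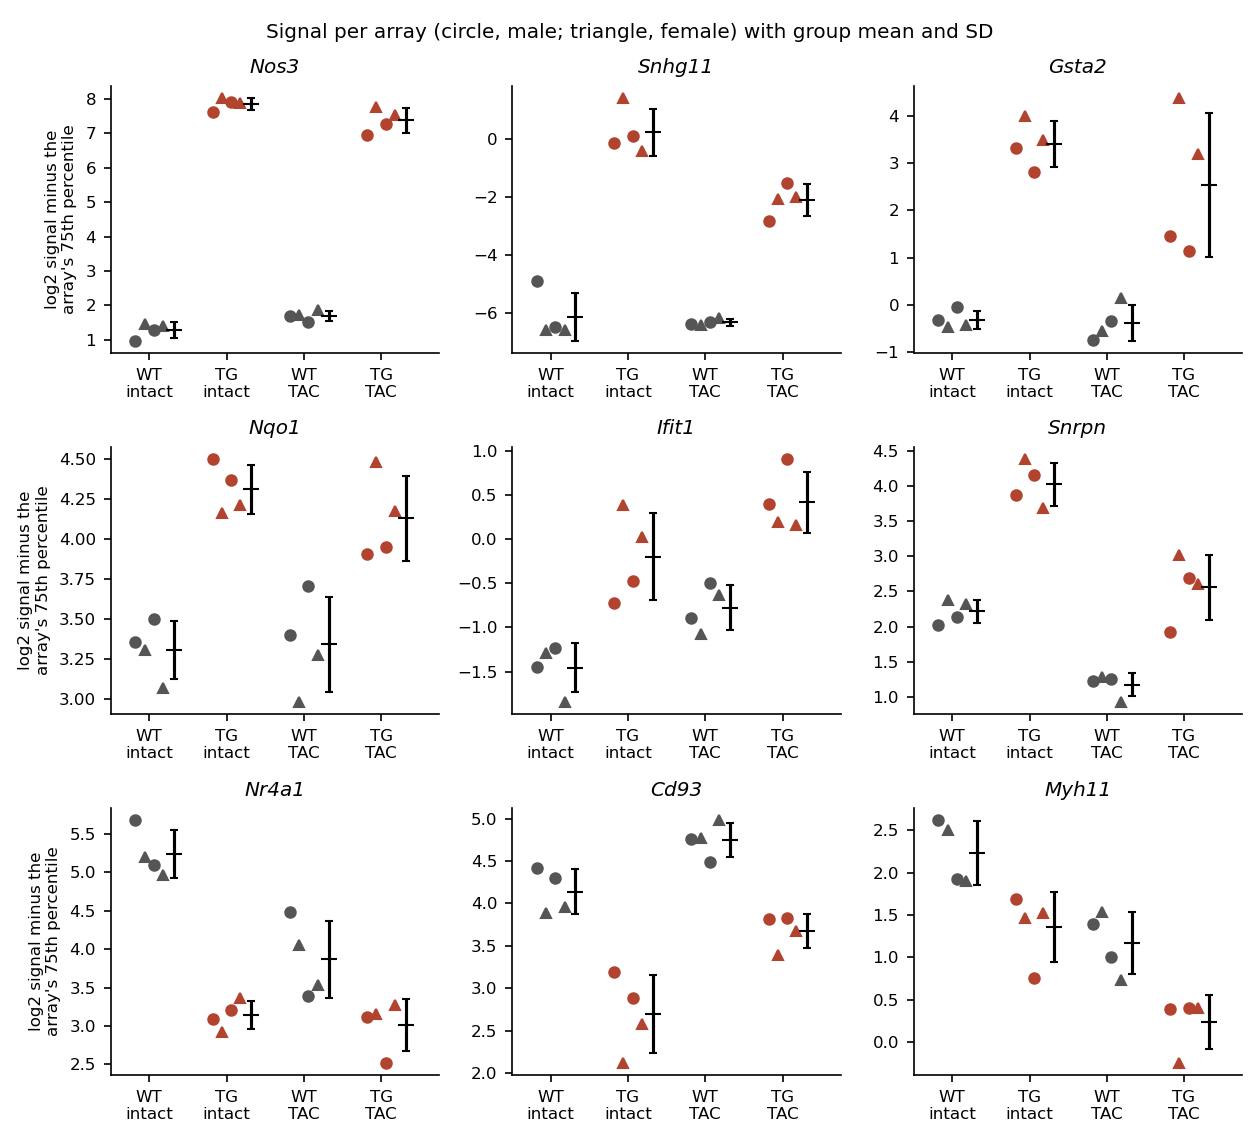
Signal of 9 genes on each array (log2 processed signal minus the array's 75th percentile) in the 4 groups of 4 arrays; circles are males, triangles females, and the black mark and bar give the group mean and SD. Nos3, Snhg11, Gsta2 and Nqo1 lay higher and Nr4a1 and Cd93 lower on all 8 NOS3-TG arrays than on any WT array, while for Ifit1, Snrpn and Myh11 the genotypes separated within each load but overlapped across loads.

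The genotypes differed in 352 transcripts, Nos3 among them, and most were higher in NOS3-TG. Of 15670 genes, 352 were called (2.25%), 253 higher (1.61%) and 99 lower (0.632%), and 63 of the rises and 10 of the falls exceeded 2-fold. The median difference was 0.63 among the genes called higher and -0.44 among those called lower, beside -0.03 over all genes. The groups of 8 arrays did not overlap for 59 genes (0.377%), of which 48 were called. An unadjusted p under 0.05 was found for 2680 genes, where 784 are expected by chance.

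The count rests on all arrays together. It fell to between 187 and 239 without any of 11 arrays, namely NOS3-TG baseline replicates 2, 3 and 4, all WT baseline replicates, NOS3-TG TAC replicates 2 and 3, and WT TAC replicates 2 and 3, and to 83 without the 3 arrays of extreme shares. Under each of the 16 single omissions 155 of the 352 genes were called, and 74 of the 352 were called without the 3 extreme arrays. All 352 kept their sign in these fits. The array of NOS3-TG baseline replicate 2 and its slide partner of the same sex differed by more than 2-fold in 1139 genes, against 314 to 891 in the other 7 such pairs.

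**Figure D2:**
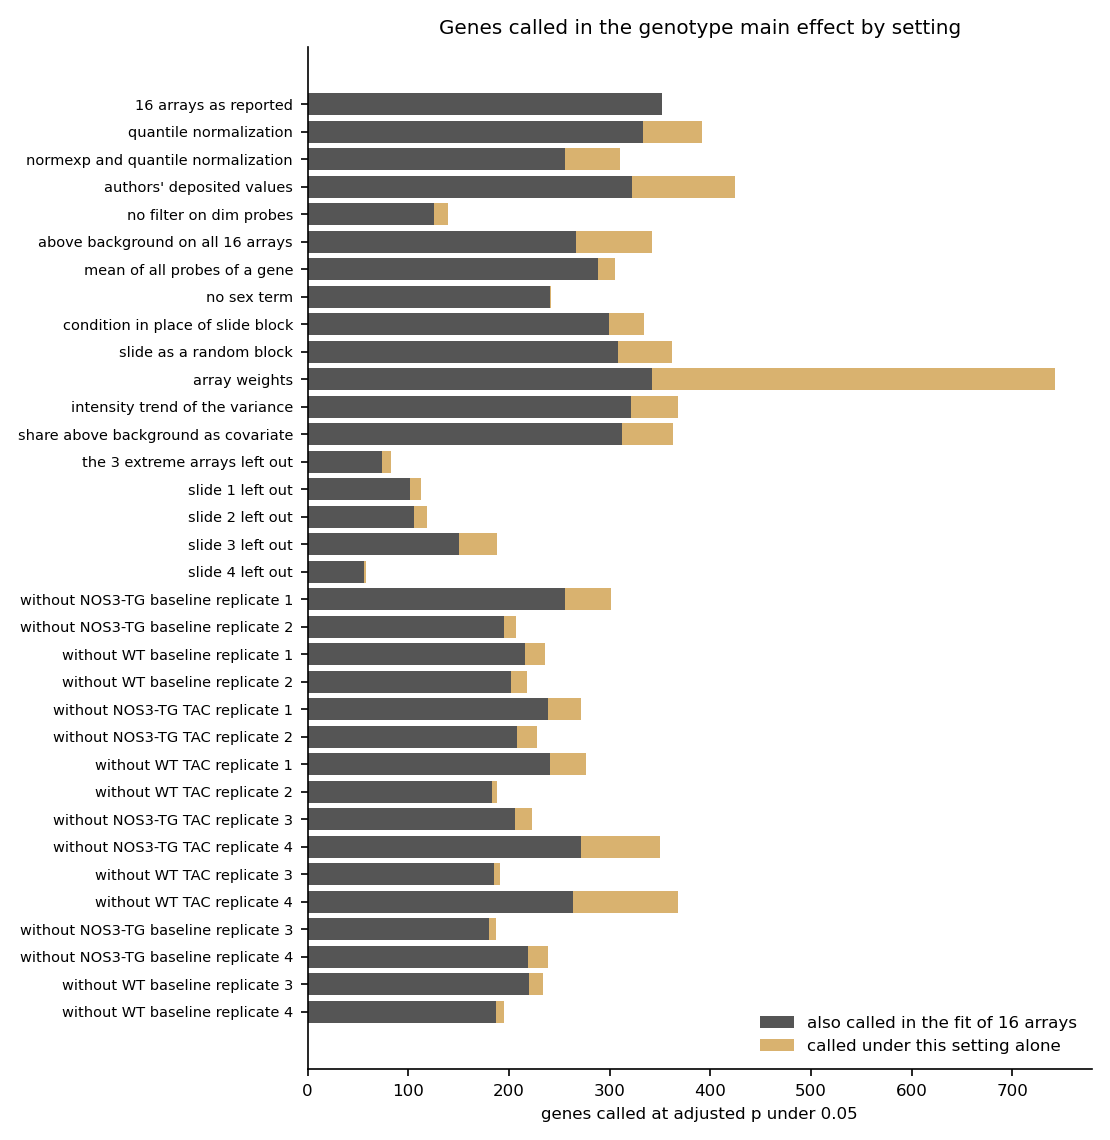
Number of genes called in the genotype contrast under each setting, split into genes that the fit of 16 arrays also called (dark) and genes called under that setting alone (light). The count of 352 fell to 58 without slide 4 and rose to 742 with array weights.

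Males and females of a slide form 8 pairs of NOS3-TG and WT arrays. The difference had the same sign in all 8 pairs for 287 of the 352 called genes (81.5%), 203 of them higher and 84 lower, against 5.14% of all genes tested. On the 4 slides taken separately, 350 of the 352 had the same sign throughout. The median difference of the genes called higher ranged from 0.44 to 0.81 over the pairs and that of the genes called lower from -0.60 to -0.32. These pairs are the arrays that made the calls, so the shares describe the spread behind them.

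**Figure D3:**
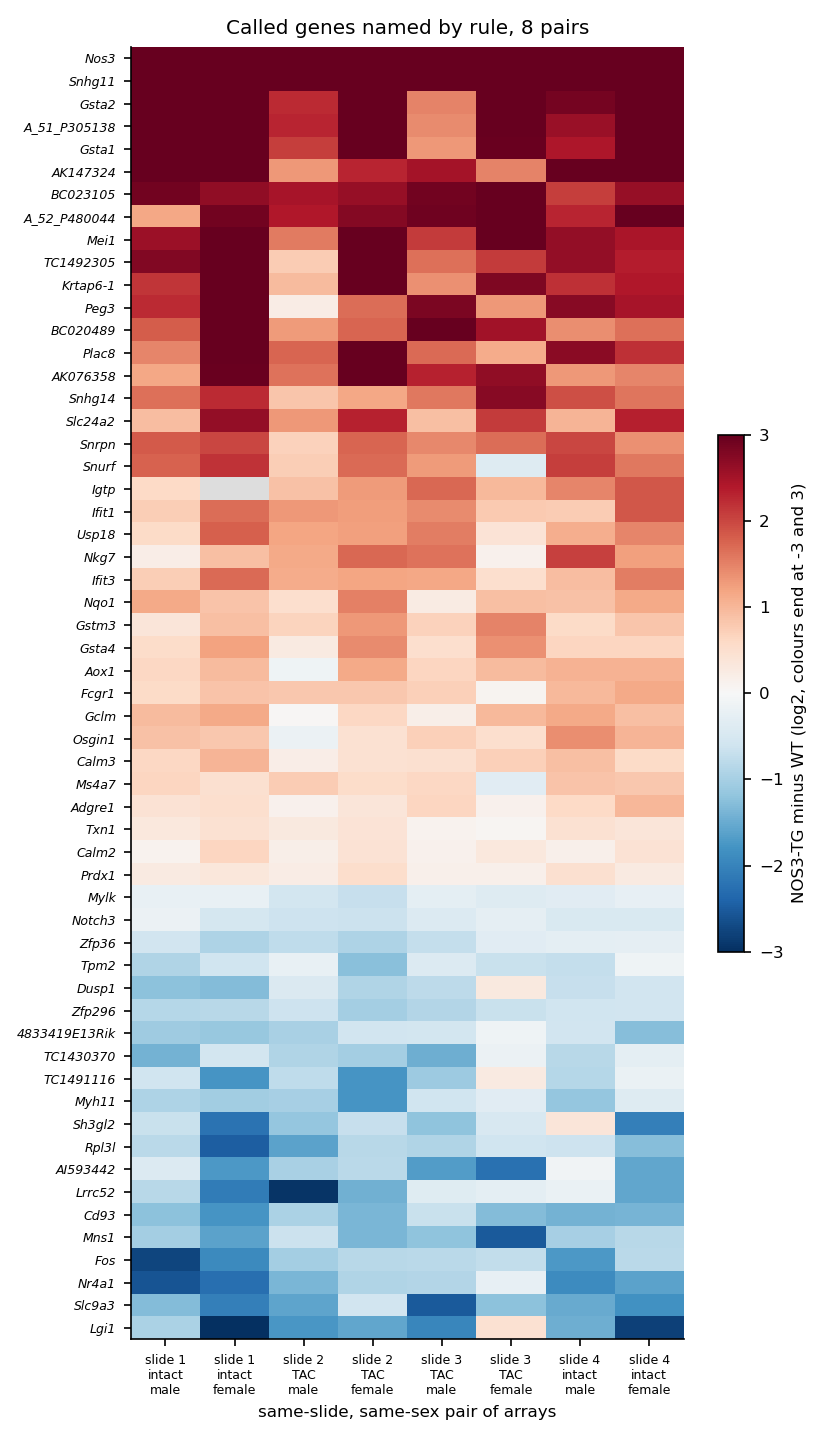
Difference NOS3-TG minus WT (log2, colour ends at -3 and 3) in each of the 8 same-slide, same-sex pairs of arrays for called genes that the naming rule selects, ordered by the difference over 16 arrays; grey is a spot left out as an outlier. Nos3 and Snhg11 are at the end of the scale in all 8 pairs, and the slide 3 female pair holds opposite signs for Snurf, Ms4a7, Dusp1, TC1491116 and Lgi1.

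The contrast pools both loads, so the next question was whether the difference was alike with and without pressure overload. No gene passed the test of the interaction between genotype and load (0 of 15670, 0.0%), with 1345 genes at an unadjusted p under 0.05, where 784 are expected by chance, and a smallest limma adjusted p of 0.111. On the 12153 genes above background on all arrays, and again with array weights, the same test called 2 genes, Ryr3, a calcium release channel, and Ier5, an immediate early gene. The Ryr3 difference was -0.51 in intact and 0.92 in TAC ventricles, and that of Ier5 0.59 and -0.49. Neither was called over all 16 arrays. The genes of smallest p in each direction were given by the naming rule. After these, and not passing, they were Mt4 and Clstn3 among positive interactions, with interactions of 1.01 and 0.94 (limma adjusted p = 0.303 each), and among negative ones Nos3 and Mafg, the small Maf partner of NRF2, with -0.89 and -0.60 (limma adjusted p = 0.482 each).

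A test that misses the threshold does not show equal differences, and the intervals of the interaction were wide. Their median half-width was 0.44 over the 352 called genes. The interval lay within -1 to 1 for 273 of them, and within the size of the gene's own main difference for 108. An unadjusted p under 0.05 for the interaction was found for 34 of the 352 (9.66%), near the 8.58% of all genes tested. The difference was larger in size at baseline for 183 of the 352 and after TAC for the others. Nr4a1 (-2.09 at baseline, -0.85 after TAC) was among those with the smaller difference after TAC.

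Fits on the 8 baseline arrays and the 8 TAC arrays share no array, so one can be read in the other. The baseline arrays alone gave 108 calls (0.689%). Of these, 95 had the same sign on the TAC arrays (88.0%, against 55.7% of all genes), 55 the same sign with an unadjusted p under 0.05 there (50.9%, against 7.83% of all genes), and 2 an adjusted p under 0.05. The median difference of the genes called higher at baseline went from 0.89 there to 0.50 on the TAC arrays, and that of the genes called lower from -0.73 to -0.33. These genes were chosen by their baseline values, so a smaller median on other arrays can follow from the choice alone. The TAC arrays alone called 2 genes (0.0128%), Nos3 and Snhg11, and both were also called at baseline. The baseline count depended on single arrays and fell to between 1 and 59 when any 1 of the 8 was left out. Of the 108 genes, 61 were also called over 16 arrays.

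**Figure D4:**
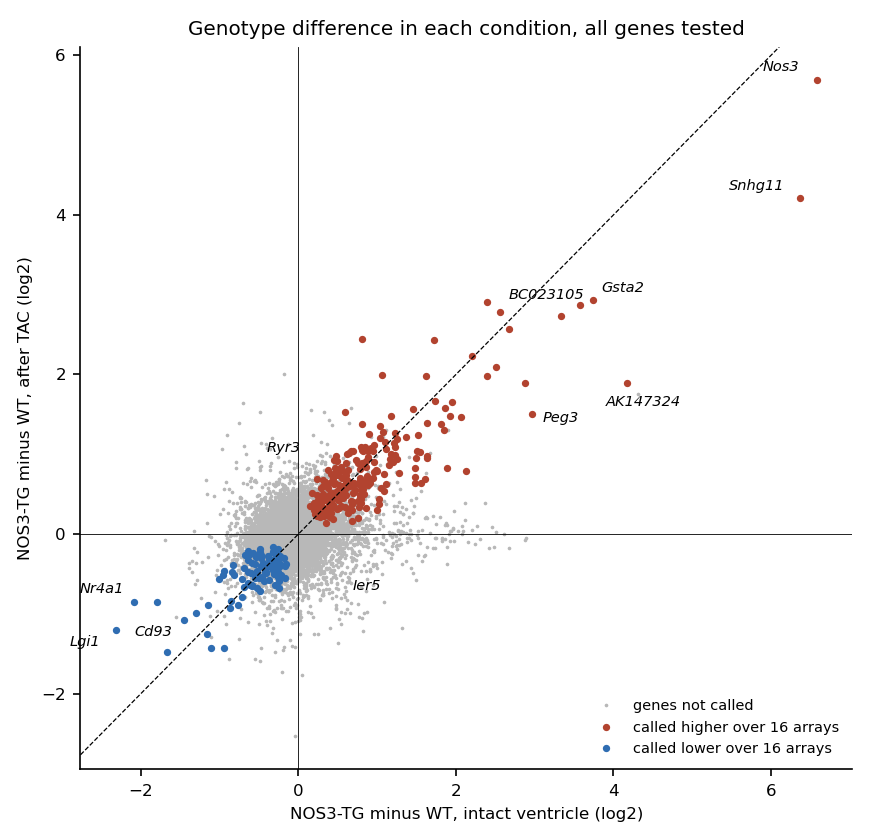
Genotype difference (NOS3-TG minus WT, log2) in intact ventricles on the horizontal axis and after TAC on the vertical axis, for all 15670 genes, with the 253 genes called higher in red and the 99 called lower in blue; the dashed line marks equal differences. The called genes, which were called on the arrays of both conditions together, share a sign in both, with Nos3 at 6.58 and 5.69.

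The other genes that make or handle nitric oxide were little changed. Of 25 measured genes of nitric oxide synthesis only Nos3 was called, and the list median was -0.01 (all genes -0.03). Gchfr, the feedback regulator of cofactor synthesis, stood at 0.39 ± 0.15 (limma adjusted p = 0.212), and Gch1, the enzyme that begins that synthesis, at 0.09 ± 0.07. Cav1 and Cav2, caveolins that hold the enzyme, stood at -0.22 ± 0.07 and -0.24 ± 0.08 and did not pass. Nos1, the neuronal synthase, stood at 0.12 ± 0.41. Of 21 genes of cyclic GMP signalling 0 were called by limma (1 higher and 6 lower at an unadjusted p under 0.05), with a list median of -0.13. Such a p was found for 2680 of all 15670 genes. Nearest were the phosphodiesterase Pde1b (-0.41 ± 0.10, limma adjusted p = 0.0514) and Rgs2, a G protein regulator that protein kinase G activates (-0.69 ± 0.18, limma adjusted p = 0.0774). The soluble cyclase subunits Gucy1a1 and Gucy1b1 stood at -0.23 and -0.22.

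Some enzymes that conjugate or reduce electrophiles were higher in NOS3-TG. Of 24 glutathione transferase genes 6 rose and 0 fell (1.61% of all genes rose), 10 had a negative difference, and the list median was 0.11 beside -0.03 over all genes. The largest were the alpha-class Gsta2 and Gsta1. Gsta2 read 1.14, 3.26 and 4.39 (lowest, median, highest) on NOS3-TG and -0.76, -0.40 and 0.13 on WT arrays. These groups did not overlap, and the difference of 3.34 ± 0.36 (limma adjusted p = 0.000634) was 10.1-fold, with a 95% interval from 5.92 to 17.3. It was 3.74 at baseline and 2.93 after TAC. Gsta1 differed by 3.03 ± 0.33 (limma adjusted p = 0.000652), and the probe A_51_P305138, which the array files leave unnamed and place within 100 kb of the Gsta2 probe, by 3.22 ± 0.34. Gsta1 and Gsta2 are near-identical in sequence, so these 3 probes may share transcript, which was not tested. Lower in size were Gstm3 (0.85 ± 0.13), Gsta4 (0.82 ± 0.13), Gstm2 (0.75 ± 0.12) and Gstm1 (0.65 ± 0.13). Without the 3 extreme arrays 2 of the list were called, Gsta1 and Gsta2, and the call of Gstm1 was lost in 5 of the 16 omissions of a single array (limma adjusted p up to 0.0606, without WT baseline replicate 4).

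Some targets of NRF2 outside that family were higher too. Of 26 measured genes 8 rose and 0 fell (1.61% of all genes rose), 21 had a positive difference, and the median was 0.26. Nqo1, which reduces quinones by transferring electrons in pairs, read 3.91, 4.19 and 4.50 on NOS3-TG and 2.98, 3.33 and 3.70 on WT arrays. All 8 NOS3-TG arrays lay above all WT arrays (0.90 ± 0.12, limma adjusted p = 0.00209), by 1.00 at baseline and 0.79 after TAC. Also called were the aldehyde oxidase Aox1 (0.78 ± 0.15), Gclm, the modifier subunit of the enzyme that limits glutathione synthesis (0.74 ± 0.14), Osgin1 (0.70 ± 0.14), the sulfiredoxin Srxn1 (0.65 ± 0.13), the ferritin light chain Ftl1 (0.62 ± 0.10), the thioredoxin reductase Txnrd1 (0.44 ± 0.09) and the pentose phosphate enzyme Pgd (0.31 ± 0.07). Gclc, the catalytic partner of Gclm, stood at 0.38 ± 0.09 (limma adjusted p = 0.0564) and Hmox1, the inducible heme oxygenase, at 0.33 ± 0.14. Nfe2l2, the gene of NRF2, stood at 1.16 ± 1.17, which rested on a value of -6.46 on WT baseline replicate 2 beside a WT median of 3.90, and 2 of its 3 other probes pointed the opposite way. Pir, which was taken after its values were seen and codes for pirin, an iron-binding nuclear protein, was called at 1.02 ± 0.14 (limma adjusted p = 0.003).

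Of 25 superoxide and peroxide enzymes the peroxiredoxin Prdx1 (0.30 ± 0.05) and the thioredoxin Txn1 (0.31 ± 0.06) rose, where 1.61% of all genes did. The list median was -0.01, and Sod1, Sod2 and Sod3 stood at -0.13, -0.06 and -0.29 without passing. Without the 3 extreme arrays 1 gene of the NRF2 list, Nqo1, and 1 of the superoxide and peroxide list, Txn1, were called. Of the 16 omissions of a single array, 13 ended the call of Pgd (limma adjusted p up to 0.0978, without NOS3-TG baseline replicate 3), 9 that of Osgin1 (up to 0.0663, without the same array), 9 that of Srxn1 (up to 0.0626, without NOS3-TG baseline replicate 2), 7 that of Txnrd1 (up to 0.0704, without WT baseline replicate 4), 4 that of Aox1 (up to 0.0554, without WT baseline replicate 4) and 1 that of Gclm (0.0506, without NOS3-TG baseline replicate 3). Load interactions were -0.59 for Gclm, -0.65 for Osgin1, -0.69 for Srxn1 and -0.37 for Txnrd1, smaller differences after TAC, and none passed (limma adjusted p = 0.558, 0.553, 0.539 and 0.563). The core of the antioxidant response element, spelled TGACNNNGC on either strand, was looked for in the 250 bases before RefSeq starts (GRCm38.p6). It was found in 2 of 17 such stretches of the 13 called glutathione and NRF2-list genes that the table holds (11.8%), those of Gclm and Txnrd1, and in 10.2% of all 32851 stretches.

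Some genes that interferon induces were higher in NOS3-TG over the 16 arrays. Of 32 measured genes 12 rose and 0 fell (1.61% of all genes rose), and all 32 had a positive difference. The median was 0.40 beside -0.03 over all genes, with 0.34 on baseline and 0.49 on TAC arrays. Among those called were the guanosine triphosphatases Igtp (1.28 ± 0.15), Irgm1 (0.74 ± 0.10) and Iigp1 (0.63 ± 0.14), the antiviral Ifit1 (1.22 ± 0.16), Ifit3 (1.11 ± 0.16), Ifit2 (0.67 ± 0.12) and Rsad2 (0.42 ± 0.09), the ubiquitin-like modifier Isg15 (0.93 ± 0.18) and its protease Usp18 (1.16 ± 0.20), Ifi27 (0.93 ± 0.12), and the transcription factor Irf7 (0.99 ± 0.19). The chemokine Cxcl10 stood at 1.60 ± 0.39 and did not pass (limma adjusted p = 0.0536), and Irf1 and Oas2 stood at 0.06 and 0.11.

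Ifit1 read -0.72, 0.18 and 0.91 (lowest, median, highest) on NOS3-TG and -1.84, -1.15 and -0.50 on WT arrays. NOS3-TG was higher in all 8 pairs and within each load, where WT stood at -1.45 ± 0.28 (SD, n = 4) at baseline and -0.78 ± 0.26 after TAC and NOS3-TG at -0.20 ± 0.50 and 0.41 ± 0.34. Igtp read 3.71, 4.48 and 5.05 against 2.75, 3.22 and 3.57, with no overlap over the 15 arrays that had a value. Its interaction with load was -0.15 (95% interval -0.84 to 0.54) and that of Ifit1 -0.07 (-0.82 to 0.69). Tbk1, a kinase upstream of interferon genes that was named after its values were seen, was called at 0.70 ± 0.07 (limma adjusted p = 0.000503). Without the 3 extreme arrays 6 of the 12 were called. Of the 16 omissions of a single array, 12 ended the call of Rsad2 (limma adjusted p up to 0.092, without WT baseline replicate 4), 11 that of Iigp1 (up to 0.0817, without the same array) and 2 that of Isg15 (up to 0.0533, without WT TAC replicate 2).

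The promoters of the called list genes were searched for a motif of interferon-induced genes. The list is made of such genes, so matches describe the list and not the genotype difference. List genes that were not called were not searched. RefSeq starts (GRCm38.p6) were in the table for 8 of the 12 called genes. The core of the interferon-stimulated response element, spelled GAAANNGAAA and searched on either strand, so that it can also read TTTCNNTTTC, lay within 250 bases before a start in 6 of these 8 genes. That is 6 of their 9 such stretches (66.7%), against 2.98% of all 32851. The 6 are given 5′ to 3′ on the gene's strand, 60 bases each, with the motif in capitals.
Igtp (chr11:58199496-58199555, plus strand): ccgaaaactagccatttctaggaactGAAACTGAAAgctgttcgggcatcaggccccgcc
Ifit1 (chr19:34640760-34640819, plus strand): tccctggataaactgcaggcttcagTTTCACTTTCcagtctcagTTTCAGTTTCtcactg
Ifit3 (chr19:34583348-34583407, plus strand): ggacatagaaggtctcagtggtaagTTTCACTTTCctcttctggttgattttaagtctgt
Isg15 (chr4:156200862-156200921, minus strand): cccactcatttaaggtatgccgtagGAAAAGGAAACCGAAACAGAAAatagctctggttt
Irgm1 (chr11:48871421-48871480, minus strand): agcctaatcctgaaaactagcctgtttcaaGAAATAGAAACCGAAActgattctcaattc
Rsad2 (chr12:26456538-26456597, minus strand): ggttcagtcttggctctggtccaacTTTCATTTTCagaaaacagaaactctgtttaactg
Overlapping matches run together in Isg15 and Irgm1. Ifit2 and Irf7 had no match in their stretch. Among the called immediate early genes, 1 of 5 stretches held it.

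A few markers of immune cells were called higher as well. Of 25 measured macrophage and monocyte markers 3 rose and 0 fell (1.61% of all genes rose), and 23 had a positive difference. Their median was 0.37, with 0.63 on baseline and 0.13 on TAC arrays. Called were the Fc receptor Fcgr1 (0.75 ± 0.14), which interferon also induces, Ms4a7 (0.55 ± 0.13) and Adgre1, the F4/80 antigen (0.48 ± 0.09). The defining markers Csf1r and Cd68 stood at 0.36 ± 0.10 and 0.42 ± 0.14 and did not pass. Summed over the list, the signal was 120.5, 144 and 163 times the 75th percentile (lowest, median, highest) on NOS3-TG and 87.2, 108 and 149 on WT arrays, so the ranges overlapped. Of 16 antigen presentation genes 0 were called, and 8 were higher at an unadjusted p under 0.05 in limma, which 2680 of all 15670 genes had in either direction. All 16 had a positive difference, and the median was 0.29, with 0.47 on baseline and 0.08 on TAC arrays. The part of cell composition in the interferon result was not tested.

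Lymphocyte transcripts were dim. Of 9 measured markers of 19 listed, Nkg7, a granule protein of natural killer and cytotoxic T cells, rose (1.12 ± 0.22), where 1.61% of all genes did. The T cell gene Cd3e stood at -0.15, while 8 of the 9 had a positive difference. The list median was 0.46, with 0.42 on baseline and 0.51 on TAC arrays. In limma 5 of the 9 were higher at an unadjusted p under 0.05, which 2680 of all 15670 genes had in either direction. Taken after their values were seen, the killer cell receptor Klrd1 (at least 1.53-fold higher, above background on 6 NOS3-TG and 0 WT arrays) and the chemokine Ccl5 (1.33 ± 0.21) were called too. A fold written as at least is a bound on the processed signal used here, and other background corrections can give less. No WT array showed the gene. NOS3-TG is therefore set against the dimmest signal of any probe that counted as above background on those arrays, or the gene's own WT signal where higher. None of the macrophage and lymphocyte calls held without the 3 extreme arrays. Fcgr1 and Adgre1 were called under each omission of a single array. Of the 16 omissions, 14 ended the call of Ms4a7 (limma adjusted p up to 0.111, without WT TAC replicate 2), 7 that of Klrd1 (up to 0.0582, without NOS3-TG baseline replicate 3) and 5 that of Nkg7 (up to 0.0541, without NOS3-TG baseline replicate 2).

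Some immediate early genes, which respond within minutes to stimulation, were lower. Of 23 measured 5 fell and 0 rose (0.632% of all genes fell), 22 had a negative difference, and the median was -0.42. Nr4a1, an orphan nuclear receptor, read 2.52, 3.14 and 3.36 on NOS3-TG and 3.39, 4.72 and 5.68 on WT arrays, with no overlap (-1.47 ± 0.23, limma adjusted p = 0.00544). WT stood at 5.23 ± 0.31 (SD, n = 4) at baseline and 3.87 ± 0.50 after TAC and NOS3-TG at 3.15 ± 0.18 and 3.02 ± 0.34, so the load interaction was 1.24 (95% interval 0.59 to 1.89, limma adjusted p = 0.526). The AP-1 subunit Fos (-1.33 ± 0.24), the phosphatase Dusp1 (-0.71 ± 0.15), the RNA decay factor Zfp36 (-0.60 ± 0.10) and Fosl2 (-0.46 ± 0.11) were called as well. Egr1 stood at -0.72 ± 0.24 (limma adjusted p = 0.153), Jun at -0.02 and Myc at 0.38. Outside the list and taken after its values were seen, Sik1, a salt-inducible kinase that cyclic AMP induces, fell by 0.64 on the log2 scale (limma adjusted p = 0.0018). Without the 3 extreme arrays Nr4a1 alone of the list was called. Of the 16 omissions of a single array, 13 ended the call of Dusp1 (limma adjusted p up to 0.0725, without WT TAC replicate 2) and 14 that of Fosl2 (up to 0.103, without NOS3-TG baseline replicate 3).

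Transcripts of 3 smooth muscle genes were lower in NOS3-TG. Of 16 smooth muscle and pericyte markers 3 fell and 0 rose (0.632% of all genes fell), and 14 had a negative difference. The median was -0.24 (all genes -0.03), nearly the same on baseline (-0.24) and TAC arrays (-0.27). Myh11, the smooth muscle myosin heavy chain, read -0.24, 0.58 and 1.69 on NOS3-TG and 0.74, 1.72 and 2.62 on WT arrays and was lower in all 8 pairs (-0.90 ± 0.15, limma adjusted p = 0.00814). Notch3, the receptor of mural cells, differed by -0.45 ± 0.08 and Mylk, the myosin light chain kinase, by -0.37 ± 0.07. Acta2, smooth muscle alpha-actin, stood at 0.09 ± 0.11, with 2 of its 3 other probes opposite. The summed signal of the list was 171, 222 and 275 on NOS3-TG and 205, 235 and 296 on WT arrays, which overlapped. Without the 3 extreme arrays none was called, and the call of Mylk was lost in 4 of the 16 omissions of a single array (limma adjusted p up to 0.0614, without WT baseline replicate 4).

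Genes of calcium handling and contraction were called in both directions. Of 34 measured 3 rose and 1 fell (11.8% called, against 2.25% of all genes), with a list median of -0.11. Among them Calm3 (0.62 ± 0.09) and Calm2 (0.30 ± 0.07), which code for calmodulin, the calcium sensor that Nos3 binds, were higher and Tpm2, beta-tropomyosin, was lower (-0.61 ± 0.13). NOS3-TG was higher in all 8 pairs for Calm3 and for Calm2, and their other probes had positive differences too. Calm3 read 3.64, 4.32 and 4.99 on NOS3-TG and 3.37, 3.71 and 4.04 on WT arrays, so the ranges overlapped. Not called were, among others, the calcium pump Atp2a2 (-0.19 ± 0.09, limma adjusted p = 0.315) and its inhibitor Pln (-0.05 ± 0.09). None of the 4 calls held without the 3 extreme arrays. Of the 16 omissions of a single array, 13 ended the call of Calm2 (limma adjusted p up to 0.0932, without WT baseline replicate 4) and 13 that of Tpm2 (up to 0.0822, without WT TAC replicate 2).

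**Figure D5:**
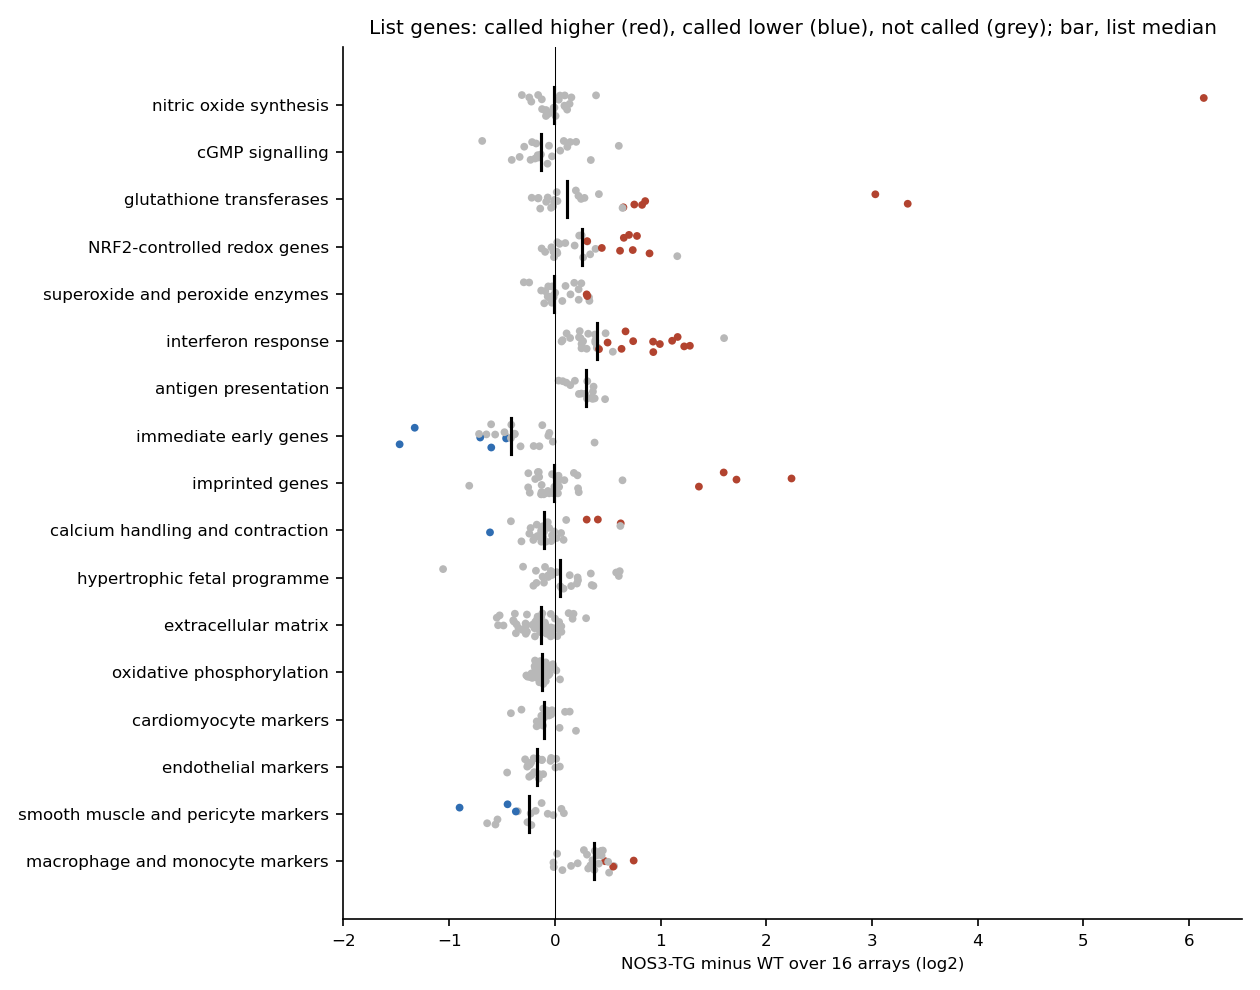
Difference NOS3-TG minus WT over 16 arrays (log2) for each measured gene of 17 lists, with called genes in red (higher) and blue (lower), other genes in grey and a bar at the list median. The interferon response genes lie above 0 throughout, with a median of 0.40, and all but 1 of the immediate early genes below it, with a median of -0.42.

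Several of the largest rises were non-coding or imprinted transcripts. Snhg11, a small nucleolar RNA host gene, read -2.84, -0.97 and 1.40 on NOS3-TG and was not well above background on any WT array. It was at least 9.89-fold higher (limma adjusted p = 4.64e-05), and its 3 other probes pointed the same way. Of 39 measured imprinted genes 4 rose and 0 fell (1.61% of all genes rose), with a list median of -0.01. Snrpn, Snurf and Snhg14, which share a locus expressed from the paternal allele, rose by 1.60 ± 0.16, 1.36 ± 0.26 and 1.72 ± 0.24, and Peg3, a paternally expressed zinc finger gene, by 2.24 ± 0.38. The Peg3 difference was 2.97 at baseline and 1.51 after TAC. Snrpn read 1.92, 3.35 and 4.38 on NOS3-TG and 0.93, 1.65 and 2.38 on WT arrays. The ranges overlapped over both loads but not within either: baseline and TAC levels were 2.21 ± 0.17 and 1.17 ± 0.16 in WT and 4.02 ± 0.31 and 2.56 ± 0.46 in NOS3-TG (SD, n = 4). Averaged over all its probes, the difference was 1.62 for Snrpn and 0.86 for Snhg14, so the 2 Snhg14 probes disagreed in size. Ndn and Ube3a, imprinted neighbours of Snrpn, stood at 0.03 and -0.01, and the imprinted H19, Igf2 and Meg3 at 0.18, 0.09 and 0.64 without passing. Snrpn, Snurf and Peg3 were called without the 3 extreme arrays, Snhg14 was not (limma adjusted p = 0.0747).

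Other large rises were of mixed kinds. Where WT was not above background the fold is a lower bound on the processed signal only, as for Mei1, a meiosis gene (at least 2.52-fold), Krtap6-1, a hair keratin-associated protein (at least 3.20-fold, with its other probe in the opposite direction), AK147324 (at least 1.74-fold) and BC020489 (at least 1.38-fold). The array files describe AK147324 as an exon of Ipw, an imprinted non-coding transcript of the Snrpn region. Yet they place its probe on chromosome 6 and that of Snrpn on chromosome 7, and which locus it reads was not tested. BC023105 (2.67 ± 0.25), the unnamed probe A_52_P480044 (2.65 ± 0.28), TC1492305 (2.39 ± 0.27), Plac8 (2.19 ± 0.37) and AK076358 (2.08 ± 0.21) completed the 15 largest. TC1492305, the one of these above background on all 16 arrays, read 0.90, 1.55 and 2.67 against -1.48, -0.81 and 0.14 without overlap. Most of the others are dim, and with background corrected by normexp their differences were smaller, at 1.22 for BC023105, 1.48 for A_52_P480044, 0.88 for Plac8, 0.73 for AK076358, 0.97 for Mei1 and 1.33 for Peg3. That of Mei1 is under 2-fold and so below its bound of 2.52-fold on the processed signal. The call of BC020489 was lost in 9 of the 16 omissions of a single array (limma adjusted p up to 0.0674, without WT TAC replicate 2). By the array files, A_52_P480044 lies within 100 kb of the probe of the interferon-induced Iigp1 on chromosome 18.

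The largest falls held an endothelial and myeloid receptor among genes of mixed function. Cd93 read 2.12, 3.29 and 3.83 on NOS3-TG and 3.88, 4.45 and 4.98 on WT arrays, with no overlap (-1.26 ± 0.14, limma adjusted p = 0.000652), by -1.45 at baseline and -1.07 after TAC. Of 22 endothelial markers none was called (8 at an unadjusted p under 0.05, all lower), 19 were negative and the median was -0.17. An unadjusted p under 0.05 was found for 2680 of all 15670 genes in either direction. Rpl3l, the muscle form of a ribosomal protein, read 2.56, 3.19 and 4.28 against 3.67, 4.48 and 5.21 and fell by 1.14 on the log2 scale (limma adjusted p = 0.0101). The sodium-proton exchanger Slc9a3 (-1.57 ± 0.23), Lgi1 (-1.76 ± 0.38), the meiotic Mns1 (-1.27 ± 0.20), Lrrc52 (-1.21 ± 0.28), AI593442 (-1.19 ± 0.26), Sh3gl2 (-1.02 ± 0.23), TC1491116, TC1430370 and 4833419E13Rik were dimmer, each above background on fewer than 16 arrays. Zfp296 fell by 0.75 on the log2 scale with no overlap, yet by 0.07 with normexp. Under normexp the differences were -0.93 for Slc9a3, -1.09 for Lgi1, -0.71 for Mns1 and -0.31 for Lrrc52. Of the 16 omissions of a single array, 14 ended the call of 4833419E13Rik (limma adjusted p up to 0.0974, without WT baseline replicate 4), 13 that of Sh3gl2 (up to 0.0924, without NOS3-TG baseline replicate 4), 13 that of TC1491116 (up to 0.0912, without NOS3-TG TAC replicate 3) and 12 that of Lrrc52 (up to 0.0988, without WT TAC replicate 2). They ended that of Lgi1 in 10 (up to 0.0823, without WT baseline replicate 4), of AI593442 in 10 (up to 0.0861, without the same array) and of TC1430370 in 5 (up to 0.0608, without WT TAC replicate 2).

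Genes by which cardiac hypertrophy and fibrosis are usually read did not pass. Of 27 genes of the fetal programme of hypertrophy 0 were called (2 higher and 2 lower at an unadjusted p under 0.05), with a median of 0.05, and of 60 extracellular matrix genes 0 were called (6 lower at an unadjusted p under 0.05), with a median of -0.13. Over all genes, 2680 of 15670 had an unadjusted p under 0.05. Of the 60 matrix genes 49 had a negative difference, and their median was 0.10 on baseline and -0.32 on TAC arrays. The natriuretic peptides Nppa and Nppb stood at 0.34 ± 0.27 and 0.60 ± 0.24. The intervals reach from -0.26 to 0.94 and from 0.09 to 1.12, so that of Nppb holds a 2-fold rise. The difference of Nppb was 1.04 at baseline and 0.17 after TAC. Myh6 and Myh7, the alpha- and beta-myosin heavy chains, stood at -0.03 ± 0.08 and 0.08 ± 0.16, and the skeletal actin Acta1 at 0.22 ± 0.24. The collagens Col1a1 and Col3a1 stood at -0.04 ± 0.14 and -0.05 ± 0.16, Postn, a matricellular protein, at -0.09 ± 0.31, and Ccn2, connective tissue growth factor, at -0.10 ± 0.28. Myh6 and Col3a1 each had a second probe of the opposite sign. The Myh6 value depended on the processing without ever passing: it was 1.79 ± 1.69 with quantile normalization, 1.47 ± 1.36 with normexp and 0.86 ± 0.85 averaged over its probes.

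Energy metabolism leaned slightly down without a call. Of 58 oxidative phosphorylation genes 56 had a negative difference and 13 an unadjusted p under 0.05, of 38 fatty acid oxidation genes 35 and 9, and of 30 genes of the tricarboxylic acid cycle and pyruvate oxidation 27 and 8. Among all 15670 genes tested 2680 had an unadjusted p under 0.05. The list genes at such a p were all lower in NOS3-TG. The list medians were -0.12, -0.14 and -0.13, beside -0.03 over all genes. On baseline arrays they were -0.21, -0.25 and -0.25 (all genes -0.06), and on TAC arrays -0.04, -0.02 and -0.03 (all genes 0.01). Quantile normalization called 1 gene of the first and 1 of the last list, normexp 3 and 1. Glycolysis, the unfolded protein response and heat shock, the circadian clock, the cell cycle, and NADPH oxidase with xanthine dehydrogenase also held no call among 20, 30, 18, 33 and 11 measured genes, with medians of -0.05, -0.04, -0.06, -0.04 and -0.02, and 3, 6, 1, 2 and 3 genes at an unadjusted p under 0.05 in limma.

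Markers of heart muscle itself differed little between genotypes. Of 20 cardiomyocyte markers 0 were called (1 higher and 1 lower at an unadjusted p under 0.05), and their median was -0.11. Their summed signal was 3229, 3716 and 4461 times the 75th percentile on NOS3-TG and 3327, 3983 and 4487 on WT arrays, as the labelled tissue would show. Fibroblast (22), atrial myocyte (10), erythroid (4), granulocyte and mast cell (6), adipocyte (9), Schwann cell and neuronal (9), mesothelial and epicardial (7), skeletal muscle (8) and sex-linked (4) lists held no called gene among the numbers measured. Their medians were -0.04, 0.11, -0.18, -0.20, 0.19, -0.03, -0.47, -0.08 and -0.10, and 0 to 3 genes of each had an unadjusted p under 0.05 in limma.

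Males and females gave the same sign for all 352 genes, which were called on both sexes together. The interaction of genotype with sex called 0 of 15670 (0.0%), with 537 at an unadjusted p under 0.05, where 784 are expected by chance. Of the 352 called genes 40 had an unadjusted p under 0.05 for this interaction, a larger share than among all genes tested. The smallest limma adjusted p was 0.139. That smallest value was of Slc24a2, a sodium-calcium-potassium exchanger gene, which differed by 1.04 in males and 2.35 in females. The test called it on the genes above background on all arrays, and again without NOS3-TG TAC replicate 4 (limma adjusted p = 0.0422 and 0.0483). The alpha-class transferases pointed the same way, Gsta2 with 2.56 in males and 4.12 in females and Gsta1 with 2.30 and 3.76 (limma adjusted p = 0.998 for either interaction). Ppp1r3g and Ppfibp2 above 0, and Arsi, Mgarp and Kif18a below 0, had the next smallest p in their direction and did not pass (limma adjusted p = 0.998 each).

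Called genes were spread over the genome. By the positions in the array files, for which no genome build was stated, the share called ran from 1.37% on chromosome 10 to 3.31% on chromosome X, with none of the 3 and 2 genes tested on chromosomes M and Y. Of 344 called genes with a position, 60 lay in 26 stretches in which called genes followed each other within 100 kb. These stretches held, among others, Ifit1, Ifit2 and Ifit3 on chromosome 19, Gstm1, Gstm2 and Gstm3 on chromosome 3, Snrpn, Snurf and Snhg14 on chromosome 7, Igtp and Irgm2 on chromosome 11, and Sprr2b, Sprr2e, Sprr2k and Sprr2j-ps on chromosome 3. Sprr2 genes, which code for small proline-rich proteins of epithelia, are near-identical copies, so their rises of 1.09, 0.89, 0.69 and 0.45 may come from shared transcript. The call of Sprr2j-ps was lost in 12 of the 16 omissions of a single array (limma adjusted p up to 0.0751, without WT TAC replicate 2).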

How the data were processed

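Left ventricular RNA was measured on single-colour Agilent arrays (Cy3), 16 in all. The deposited intensity values are the background-subtracted, detrended processed signal and flags per spot, made with Agilent Feature Extraction (version 9.5.1.1 in the submitters' processing notes) without normalization between arrays. A second deposited file holds the authors' log2 values for 22057 probes, normalized in a way not given in the sources used here. Each of its columns tracked the log2 signal of its own array (lowest correlation 0.9996, across probes that are not independent replicates), with medians from 9.95 to 9.99. They were used as an alternative.

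Control and outlier spots were left out, repeated probes averaged, and genes named through a RefSeq table (GRCm38.p6) or, failing that, by the file. Log2 signal minus the array's 75th percentile was analysed for probes well above background on at least 4 of 16 arrays, with the brightest probe per gene. Limma 3.58.1 (under R 4.3.3, with the data.table package at 1.17.8) fitted slide, sex and genotype. Calls are two-sided at an adjusted p under 0.05. Further fits added the interaction with load or sex, or took baseline or TAC arrays alone. The script was tested on simulated data. Figures were drawn with matplotlib 3.10.9 and pandas 2.3.3 in Python 3.11.15. Precision is set by how many arrays there are, and a difference had a standard error of 0.09 at the median gene.

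The members and lists were chosen with earlier results of these data known. Named are a panel of 12 genes, the 15 largest rises and falls with the same sign on all 4 slides, up to 4 called members of each list, and the genes with the smallest interaction p. Remaining called members of a list are named too, and other genes only where said to be taken after their values were seen. Of 20 pathway and 14 marker lists, counts and medians are given without a set test. Replicates are different mice, per the labels. Some items are not reported here.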

Additional observations from a re-analysis of the deposited data

Results flagged for a closer look

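Within the 8 arrays of each genotype, 158 sets of values of the named genes were screened for an array far from the others, and 5 stood apart, where chance gives about 1 in 20. Snhg11 read -4.91 on WT baseline replicate 1, above the next WT array at -6.16. Calm2 was highest on the same array, at 5.70 against 5.36. BC020489 read -0.57 on NOS3-TG baseline replicate 2, and the next array -3.05. Lgi1 was lowest among WT arrays on WT TAC replicate 4, at -4.07 against -2.14. Arsi, which was not called, was highest on that array, at -2.48 against -3.14.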

How the results depend on the processing

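All 352 called genes kept their sign under quantile normalization, array weights and the fits that left out arrays or slides, 351 did under normexp and 350 with the mean of all probes. No named called gene reversed, and 16 of 58 stayed called under every alternative and 41 without any single array. The count of 352 became 139 without a filter on dim probes, 742 with array weights, 83 without the 3 arrays of extreme share, and 113, 119, 188 and 58 without slides 1 to 4. It lay between 187 and 368 without single arrays. The share of higher calls, 71.9%, was 86.3% without the filter and 86.7% and 91.4% without slides 1 and 4. The count of the load interaction went from 0 to 2 on genes above background on all arrays and to 2 with array weights. That of the sex interaction went to 1 on the former, and to between 0 and 1 without single arrays. The baseline count of 108 was 2 without the filter, 305 on genes above background on all arrays, and 1 to 59 without single arrays. The TAC count of 2 was 5 with the authors' values, 1 without the filter, 8 on genes above background on all arrays, 14 with array weights and 1 to 8 without single arrays. The causes were not tested, apart from the fewer arrays in fits that leave some out. No paired analysis was possible because the labels give no shared replicate numbers, as far as a block of replicate numbers goes. The arrays were matched by slide and sex instead, both in the model. Condition in place of slide gave 334 calls, and slide as a random block (within-slide correlation 0.0468) gave 362. Probes near background have little depth of signal, and their differences depend on the background correction.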
